A study of Homo sapiens with 6 samples.

Results

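Acute phase, complement and coagulation genes encode the proteins with which plasma answers infection and injury, and 46 of them were followed in A549 cells, a human lung adenocarcinoma line. The members were taken by gene symbol from a list of 46 names, and were 46 of the 19470 symbols in the deposited count table. They comprised the 3 fibrinogen chains, 16 acute phase and plasma carrier proteins, 10 complement components and proteases, 3 membrane shields against complement, 6 coagulation genes including a protease-activated receptor, 5 anticoagulants and 3 genes of fibrinolysis. RNA sequencing had been done on 3 libraries of A549 cells in an induced dormant state and on 3 libraries of A549 cells activated with medium that osteoclasts, the cells that resorb bone, had conditioned. All 6 libraries carried the genotype label WT. How dormancy was induced, the dose and duration of the conditioned medium, and whether the base medium of the groups differed are points that the labels do not give. Nor do they say whether the libraries are separate cultures, so each p-value measures the spread between libraries alone, and that spread may be technical. The comparison asked which genes differed between the dormant and the activated state.

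The liver makes most of these proteins, and during inflammation interleukin 6, acting through its receptor, the shared chain gp130 and the factor STAT3, together with interleukin 1 and the C/EBP factors, raises the synthesis of the acute phase group. Epithelial cells of the lung can make many of the same proteins, among them fibrinogen and complement C3. Complement is a protease cascade that meets on C3 and is held back on host cells by the shields CD46, CD55 and CD59. Coagulation is started by tissue factor and ends with the conversion of fibrinogen to fibrin, which plasmin, made from plasminogen by the activators encoded by PLAU and PLAT, dissolves.

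The libraries held between 34128471 and 36667725 counts, and the log2 CPM (counts scaled to a common library size) of libraries correlated at 0.994 or more within groups and at 0.928 or less between groups. The summed level of 12 A549 and lung epithelial markers was 8784 to 9367 CPM in dormant and 16704 to 18189 CPM in activated libraries. Of 10 tested, 5 were higher and 3 lower in activated cells. Calls on markers stand beside 36.5% higher and 37.2% lower of all genes tested. None of the 12 was at 0, but of the surfactant genes SFTPB had 5 dormant and 4 activated counts and SFTPC had 0 and 2. Of 8 osteoclast markers, CALCR, DCSTAMP and OCSTAMP were at 0 in every library, 5 were tested, 1 was higher and 2 were lower. Their summed level was 17.4 to 18.7 CPM in dormant and 14.6 to 15.5 CPM in activated libraries. Of 9 myeloid markers, TYROBP and AIF1 were at 0, the summed level moved from a range of 133 to 144 CPM to one of 160.1 to 169 CPM, and the 4 members tested were all higher in activated cells. The 8 hepatocyte markers summed to 16.0 to 19.4 CPM in dormant and 10.1 to 12.2 CPM in activated libraries, and of 3 tested, 0 were higher and 1 was lower. The 7 fibroblast markers summed to 6.04 to 6.12 and 10.7 to 12.5 CPM, with 4 of 4 tested higher, and the 4 endothelial markers to 0.386 to 0.801 and 0.438 to 1.07 CPM. The part of these cell type markers in the results that follow was not tested. In bulk RNA, a change in the number of cells that make a transcript and a change in the RNA made per cell cannot be told apart.

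Of the 7 role groups, the fibrinogen chains had the largest median log2 fold change, 4.15. Their upstream sequences, read from RefSeq (build GRCh38.p14), are given with those of HPX and ITIH4, the 2 acute phase and carrier members that fell. Each sequence is the 250 bases before the start of the gene, 5' to 3' on the gene's strand. Capitals mark matches, on either strand, to the motif GTTAAT, the STAT motif TTCNNNGAA, the type II interleukin 6 response motif CTGGGAA and the C/EBP motif TTNNGCAA.
FGA, chr4:154590743-154590992, minus strand: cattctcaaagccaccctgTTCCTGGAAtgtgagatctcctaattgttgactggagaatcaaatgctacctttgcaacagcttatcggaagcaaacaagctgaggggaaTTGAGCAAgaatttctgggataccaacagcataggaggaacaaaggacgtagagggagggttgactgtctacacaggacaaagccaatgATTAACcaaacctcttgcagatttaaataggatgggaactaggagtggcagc
FGB, chr4:154562730-154562979, plus strand: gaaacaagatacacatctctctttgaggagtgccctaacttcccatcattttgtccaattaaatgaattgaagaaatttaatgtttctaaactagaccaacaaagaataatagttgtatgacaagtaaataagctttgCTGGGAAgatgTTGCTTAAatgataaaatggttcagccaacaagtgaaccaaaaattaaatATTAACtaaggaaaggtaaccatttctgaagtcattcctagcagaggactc
FGG, chr4:154612657-154612906, minus strand: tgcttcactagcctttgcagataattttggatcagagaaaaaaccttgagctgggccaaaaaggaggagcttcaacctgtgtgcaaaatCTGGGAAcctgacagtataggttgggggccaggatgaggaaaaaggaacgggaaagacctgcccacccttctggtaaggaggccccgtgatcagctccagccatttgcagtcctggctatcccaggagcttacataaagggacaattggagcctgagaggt
HPX, chr11:6440988-6441237, minus strand: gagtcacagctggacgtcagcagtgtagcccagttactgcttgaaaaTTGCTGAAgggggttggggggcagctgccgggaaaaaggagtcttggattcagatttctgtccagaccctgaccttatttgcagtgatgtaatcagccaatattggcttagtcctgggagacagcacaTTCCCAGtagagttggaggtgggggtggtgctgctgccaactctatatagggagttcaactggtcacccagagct
ITIH4, chr3:52830673-52830922, minus strand: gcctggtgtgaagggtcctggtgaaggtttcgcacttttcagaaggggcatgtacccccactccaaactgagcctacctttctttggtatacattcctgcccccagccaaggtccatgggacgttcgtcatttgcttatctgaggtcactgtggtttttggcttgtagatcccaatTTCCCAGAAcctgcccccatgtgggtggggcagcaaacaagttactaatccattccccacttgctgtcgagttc
Counting back from -1 at the base before the start, the FGA sequence held GTTAAT at -52 to -47, a C/EBP match at -141 to -134 and a STAT match at -231 to -223. The FGB sequence held GTTAAT at -51 to -46, a C/EBP match at -101 to -94 and CTGGGAA at -112 to -106. The FGG sequence held 1 match, CTGGGAA at -161 to -155. HPX held CTGGGAA at -75 to -69 and a C/EBP match at -203 to -196, so FGB and HPX shared these 2 motifs. In ITIH4 a STAT match at -74 to -66 overlapped CTGGGAA at -74 to -68.

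Promoter sequences were matched for 34 of the 46 genes, and LBP, SAA1, SAA2, HP, ITIH2, ORM2, CP, C1S, C3, CLU, THBD and PLAT were not among them. GTTAAT was found in 6 of the 34 (17.6%) and in 6.23% of 35116 promoter sequences of the same length. Each of the 34 was counted by its first listed sequence. The 35116 were all sequences held, not limited to genes of the count table, so the shares have unlike units. TTCNNNGAA was found in 8 (23.5%) against 6.57% of all promoters, CTGGGAA in 5 (14.7%) against 9.15%, and TTNNGCAA in 8 (23.5%) against 9.05%. A strict NF-kB motif, GGGA followed by any 2 bases and TTCC, was found in 0 of the 34 and in 1.40% of all promoters. These counts describe letters in 250 bases and do not show that a factor binds there.

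Of the 46 genes, 44 had at least 1 count and 40 passed the filter on low counts. Activated cells had higher levels of 26 (65.0% of those tested) and lower levels of 6 (15.0%) by the quasi-likelihood test of edgeR with a Benjamini-Hochberg adjusted p threshold of 0.05, and 8 did not pass. Over all 13336 genes tested, 73.7% passed, 36.5% as higher and 37.2% as lower. At a change of at least 2-fold, 17 of the 40 were higher and 3 lower (42.5% and 7.5%), beside 11.2% higher and 11% lower of all genes. The median log2 fold change was 0.75 over the 40 and -0.02 over all genes tested. These counts are not over the whole list, and 8 of the 40 passed the filter through the level in 1 group only, namely LBP, CRP, C4BPB and F2 through the activated and HPX, APOH, AHSG and PROC through the dormant libraries. The list of 46 was chosen with earlier results of these data known, so these shares do not test for an excess of rises. The summed level of the 46 genes was 2804, 2999 and 2907 CPM in the dormant libraries. In the activated libraries it was 5124, 5391 and 5293 CPM. Abundant genes weigh most in this sum, such as PLAU (mean 137 to 696 CPM) and C3 (353 to 856 CPM). Scaling by total counts and not by TMM factors moved the median of all genes to -0.16, and the calls over all genes then split into 3941 higher and 5998 lower in place of 4868 and 4962, and the members into 25 and 7.

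**Figure D1:**
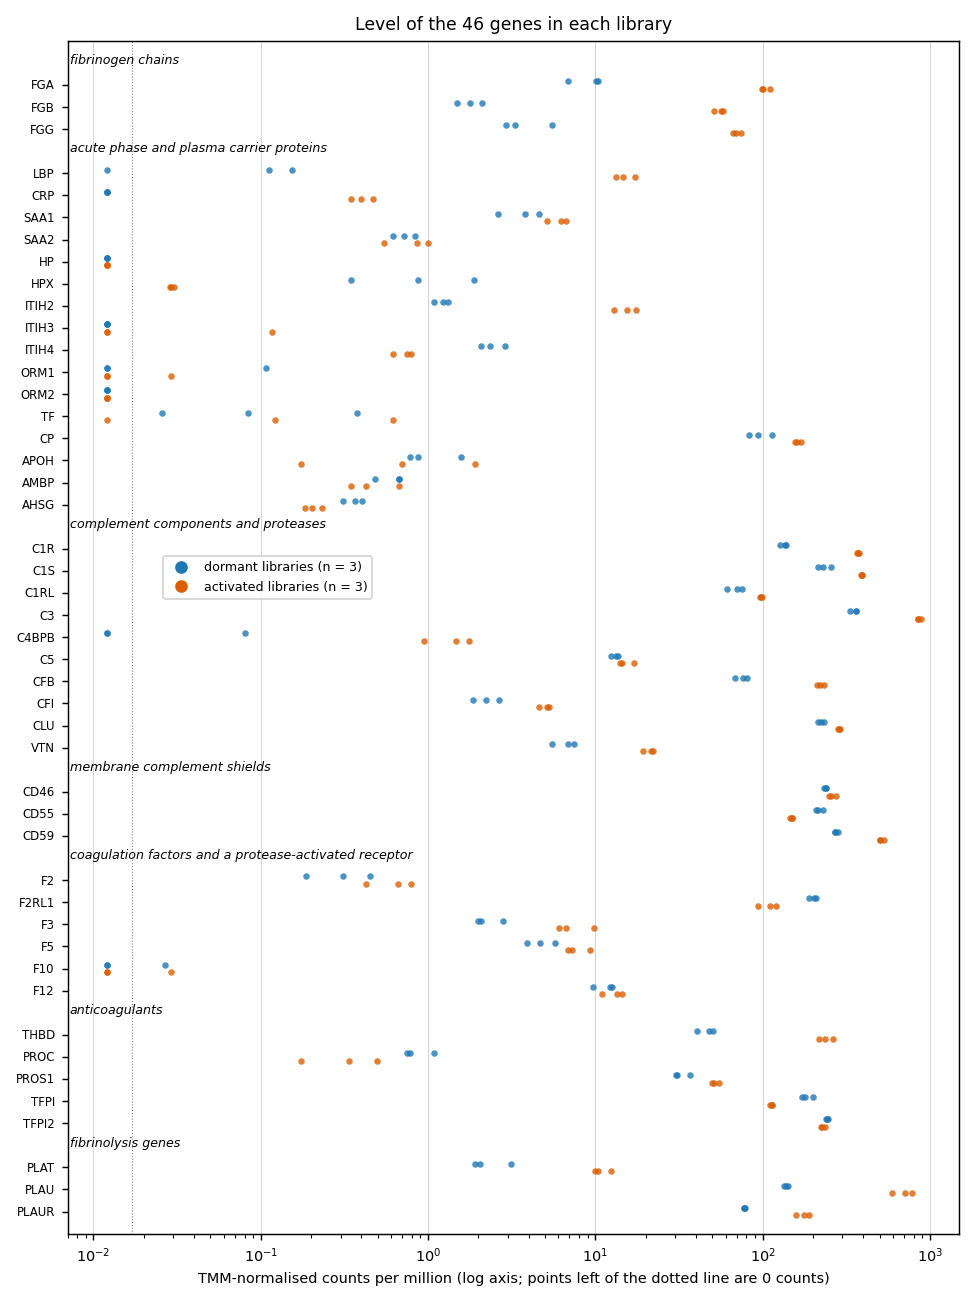
Level of each of the 46 genes in each library, as TMM-normalised CPM on a log axis, grouped by role, with dormant libraries in blue and activated libraries in orange. Points left of the dotted line are libraries with 0 counts, and the fibrinogen chains, LBP and ITIH2 show wide gaps between the groups.

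**Figure D2:**
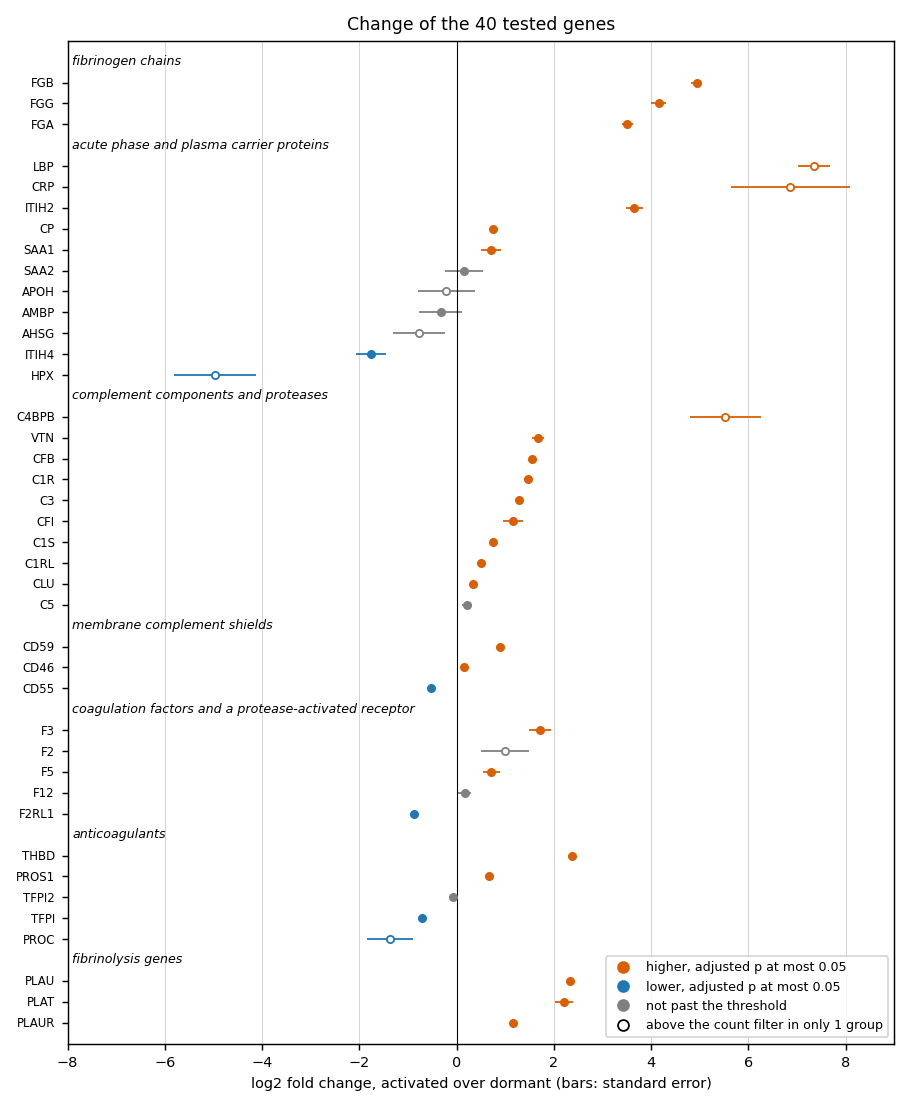
Log2 fold change (activated minus dormant) of the 40 genes tested, with bars of 1 standard error, grouped by role and coloured by whether the gene passed an adjusted p of 0.05. Values right of 0 are higher in activated cells, LBP is at 7.35, and the position of CRP, which had 0 dormant counts, is a fitted value and no bound.

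The fibrinogen genes encode the 3 chains of the clotting protein that thrombin turns into fibrin. All 3 rose in activated cells, between 11.4-fold and 30.6-fold. Their groups did not overlap, as in 35 of the 40 members tested (87.5%). The share of all genes tested without overlap is not given here, so non-overlap does not set a gene apart. Of all genes tested, 36.5% were higher. FGA, the alpha chain, was at 6.84, 10.4 and 10.1 CPM in the dormant libraries and at 99.6, 110.0 and 101 CPM in the activated ones, a log2 fold change of 3.51 ± 0.11 (SE, n = 3 per group, adjusted p = 1.09e-12). FGB, the beta chain, was at 1.496, 2.11 and 1.79 CPM and then at 56.4, 51.1 and 58.2 CPM, which is 30.6-fold higher (log2 4.94 ± 0.11, adjusted p = 4.36e-14). FGG, the gamma chain, was at 3.31, 5.50 and 2.91 CPM and then at 66.6, 74.4 and 68.8 CPM, which is 17.8-fold higher (log2 4.15 ± 0.15, adjusted p = 3.63e-12). The spread within each group was small beside these differences.

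Per length, FGB and FGG were also higher relative to FGA in activated cells. In FPKM, the deposited unit that divides counts by gene length and library total, FGA was at 2.44 ± 0.542 (SD, n = 3) in dormant and 25.2 ± 1.41 in activated libraries, FGB at 0.514 ± 0.0927 and 14.3 ± 0.948, and FGG at 1.95 ± 0.716 and 31.6 ± 1.84. FGB, with the lowest FPKM of the 3 in dormant cells, had the largest fold change. The FPKM ratio of FGB to FGA was 0.233, 0.217 and 0.190 in the dormant and 0.603, 0.495 and 0.616 in the activated libraries. That of FGG to FGA was 0.900, 0.987 and 0.537 and then 1.24, 1.26 and 1.27. Neither ratio overlapped between the groups, although with 3 libraries against 3 an exact permutation test cannot give a two-sided p below 0.1.

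The 3 genes lie together on chromosome 4 (GRCh38.p14), with FGB at 154562980 to 154572807 on the plus strand, FGA at 154583126 to 154590742 and FGG at 154604136 to 154612656 on the minus strand, a span of 49.7 kb. The nearest tested protein-coding gene on each side went the other way. PLRG1, 12.6 kb below FGB, fell 1.79-fold, from 91.2 ± 5.44 to 51.0 ± 1.08 CPM (adjusted p = 5.78e-09), and MAP9, 730.0 kb above FGG, fell 2.25-fold.

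**Figure D3:**
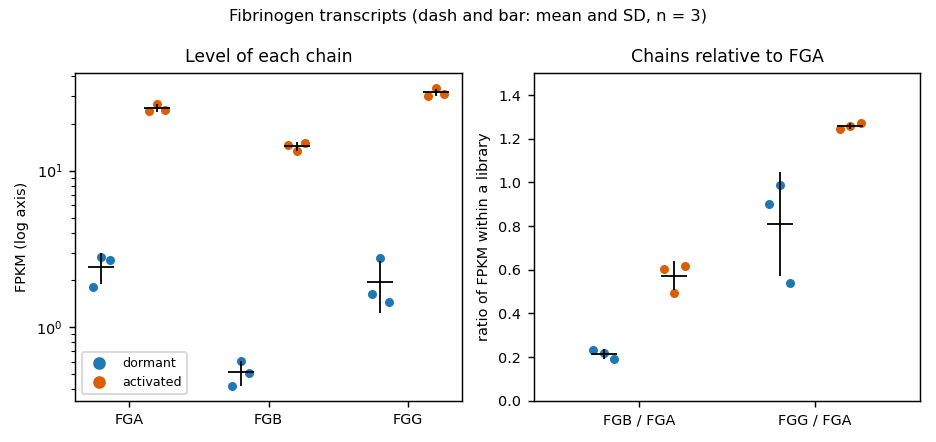
Levels of FGA, FGB and FGG in each library in FPKM on a log axis, and the FPKM ratios of FGB and FGG to FGA within each library, with dormant libraries in blue, activated libraries in orange and the mean and SD of 3 libraries in black. The FGB to FGA ratio lies between 0.190 and 0.233 in dormant and between 0.495 and 0.616 in activated libraries.

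Of the 16 acute phase and carrier genes, 11 were tested, of which 5 rose, 2 fell and 4 did not pass. Of the 11, 5 passed the count filter through 1 group only. Among these, LBP and CRP passed through the activated and HPX through the dormant libraries. Over all genes tested, 36.5% were higher and 37.2% lower. LBP, which carries bacterial lipopolysaccharide to CD14 (chromosome 20, 38346482 to 38377013), was close to absent in dormant cells at 0, 0.154 and 0.112 CPM and stood at 13.2, 17.3 and 14.7 CPM in activated cells. Its 10 dormant counts against 1536 activated ones gave a ratio of 169, with an exact binomial 95% interval of 91.8 to 354 that covers counting error only (log2 7.35 ± 0.32, adjusted p = 3.64e-11). The fitted fold was 163 and became 259 without dormant replicate 2. CRP, the C-reactive protein that marks inflammation in blood, had 0 counts in each dormant library and 16, 12 and 13 in the activated ones. Against 3 counts over the dormant group, or 0.0268 CPM, it was at least 15.1-fold higher, at an activated level of 0.403 ± 0.0612 CPM (adjusted p = 0.000234).

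ITIH2, a heavy chain of the inter-alpha-trypsin inhibitors that bind hyaluronan (chromosome 10, 7703316 to 7749520), was at 1.31, 1.23 and 1.09 CPM in dormant and 15.5, 12.9 and 17.5 CPM in activated libraries, 12.6-fold higher (adjusted p = 6.89e-11). The relative ITIH4 went the other way, from 2.08, 2.88 and 2.35 CPM to 0.614, 0.749 and 0.792 CPM, 3.39-fold lower (log2 -1.76 ± 0.31, adjusted p = 0.000118). The groups did not overlap in either gene, as in 35 of the 40 members tested. ITIH3, the neighbour of ITIH4, had 4 counts in activated replicate 1 and none elsewhere and was not tested.

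HPX, hemopexin, which binds free heme, fell to 1 count in each activated library, from 13, 73 and 31 counts in the dormant ones. The dormant levels of 0.347, 1.88 and 0.867 CPM spread widely, with dormant replicate 2 the highest. The ratio of counts was 35.4-fold lower with a 95% interval of 11.8 to 174 (log2 -4.97 ± 0.84, adjusted p = 8.47e-05), and the fitted fold of 31.4 became 18.4 without dormant replicate 2. HP, haptoglobin, the hemoglobin carrier, had 0 counts in every library, which allows up to 0.0268 CPM in dormant and 0.0295 CPM in activated cells.

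CP, the copper carrier ceruloplasmin, rose 1.68-fold, from 96.5 ± 15.8 to 163 ± 7.36 CPM (adjusted p = 1.79e-06). It shares 1418 of its 7296 exonic bases with HPS3 on the opposite strand, and whether counting used strand is not given. SAA1, a serum amyloid A protein, rose 1.63-fold, from 3.68 ± 0.983 to 6.02 ± 0.781 CPM (adjusted p = 0.00637), while SAA2 was at 0.726 ± 0.111 and 0.802 ± 0.229 CPM (adjusted p = 0.744). Their transcripts are 97.7% identical over 616 aligned bases, so the split of reads between them is uncertain, and their sum rose 1.55-fold (log2 0.63 ± 0.18, adjusted p = 0.00628).

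The other carriers were low and did not pass. APOH, a phospholipid-binding apolipoprotein, had 29, 61 and 31 dormant and 65, 6 and 23 activated counts (adjusted p = 0.749), a wide spread in both groups. AMBP, the precursor of alpha-1-microglobulin and bikunin, had a log2 fold change of -0.33 ± 0.44 (adjusted p = 0.512), and AHSG, fetuin A, one of -0.78 ± 0.53 (adjusted p = 0.199). The 40 dormant and 21 activated counts of AHSG differ by a ratio of 1.73 (95% interval 0.996 to 3.09), and its groups did not overlap. TF, the iron carrier transferrin, which shares 112 exonic bases with SRPRB, was not tested, with 14, 1 and 3 dormant and 21, 0 and 4 activated counts. ORM1, an orosomucoid, had 4 counts in dormant replicate 1 and 1 in activated replicate 1, and its near copy ORM2, 95.9% identical in transcript over 760 bases, had 0 counts throughout.

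Of the 10 complement components and proteases, 9 were higher in activated cells, 0 were lower, and the median log2 fold change was 1.22. Beside this, 36.5% of all genes tested were higher and 37.2% lower. C1R and C1S are the proteases that start the classical pathway. C1R was at 128, 137 and 138 CPM in dormant and 377, 364 and 372 CPM in activated libraries, 2.77-fold higher (log2 1.47 ± 0.05, adjusted p = 1.96e-12). C1S rose less, from 233 ± 20.4 to 391 ± 4.06 CPM (1.68-fold, adjusted p = 2.52e-08). The FPKM ratio of C1R to C1S went from 0.667, 0.602 and 0.671 to 1.08, 1.06 and 1.06, with no overlap. C1RL, a C1R-like protease, rose 1.42-fold from 69.0 ± 7.19 to 97.9 ± 1.56 CPM (adjusted p = 8.11e-06). The 3 genes lie within 48.5 kb of chromosome 12, and C1R and C1RL share 672 exonic bases on the same strand, while C1S shares 229 with EMG1. The nearest tested protein-coding genes outside these 48.5 kb, LPCAT3, 42.2 kb below, and CLSTN3, 19.9 kb above, were also higher, by 2.57-fold and 1.17-fold. EMG1, which overlaps C1S, had 6249 dormant and 6091 activated counts before scaling.

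C3, on which all complement pathways meet (chromosome 19, 6677704 to 6720650), was at 334, 363 and 363 CPM in dormant and 844, 846 and 880.0 CPM in activated libraries. It rose 2.42-fold (log2 1.28 ± 0.05, adjusted p = 1.07e-11). CFB, the protease of the alternative pathway convertase, rose 2.92-fold, from 68.8, 80.8 and 76.8 CPM to 211, 232 and 219 CPM (adjusted p = 1.53e-11). CFB overlaps C2 by 23 exonic bases. C5, from which the membrane attack complex is begun, was at 13.1 ± 0.617 and 15.2 ± 1.68 CPM (log2 0.21 ± 0.11, adjusted p = 0.0834).

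Among soluble regulators, CFI, the protease that cuts C3b and C4b, rose 2.23-fold from 2.22, 2.65 and 1.85 CPM to 4.59, 5.30 and 5.12 CPM (adjusted p = 0.000127). VTN, vitronectin, which blocks the attack complex and binds cells, was at 5.53, 6.82 and 7.49 CPM and then at 21.5, 19.3 and 22.1 CPM, 3.17-fold higher (adjusted p = 9.89e-09). CLU, clusterin, which also blocks the attack complex, rose 1.27-fold from 224 ± 8.77 to 285 ± 4.68 CPM (adjusted p = 1.20e-05). C4BPB, the beta chain of the C4b-binding protein, had 3 counts in dormant replicate 1, none in the other dormant libraries and 60, 51 and 31 in the activated ones. That ratio was 52.1-fold higher with a 95% interval of 17.5 to 256 (adjusted p = 7.28e-06), and the fitted fold of 46.1 became 394 without dormant replicate 1.

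The membrane shields did not move together. CD59, which stops the attack complex from forming its pore (chromosome 11, 33703010 to 33736479), rose 1.87-fold from 272, 280.5 and 271 CPM to 504, 529 and 504 CPM (log2 0.90 ± 0.05, adjusted p = 2.17e-10). CD55, the decay-accelerating factor that takes apart the C3 convertases, fell 1.45-fold from 207, 228 and 213 CPM to 150.3, 147 and 151 CPM (log2 -0.53 ± 0.05, adjusted p = 1.90e-07). CD46, the cofactor with which CFI cuts C3b, was at 232, 239 and 238 CPM and then at 274, 257 and 251 CPM, a 1.10-fold rise (log2 0.14 ± 0.05, adjusted p = 0.0174). The CD46 call did not hold with total counts (log2 0.00, adjusted p = 0.972) or without dormant replicate 1 (adjusted p = 0.0566). It was also lost in the limma fits on log2 FPKM (log2 0.001, adjusted p = 0.981 to 0.985). The FPKM ratio of CD59 to CD55 went from 0.539, 0.506 and 0.522 to 1.38, 1.48 and 1.37. CD55 and CD46 lie on chromosome 1 in the same 706.7 kb stretch as C4BPB, and C4BPA, which lies between C4BPB and CD55, was 1.99-fold higher (adjusted p = 0.0233). C4BPA was low, at 0.978 ± 0.452 CPM in dormant and 1.95 ± 0.192 CPM in activated libraries. Neighbours in this cluster of complement regulators moved in different directions. The nearest tested protein-coding genes outside it were lower, PFKFB2, 7.8 kb below, by 5.23-fold and PLXNA2, 226.7 kb above, by 1.46-fold.

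**Figure D4:**
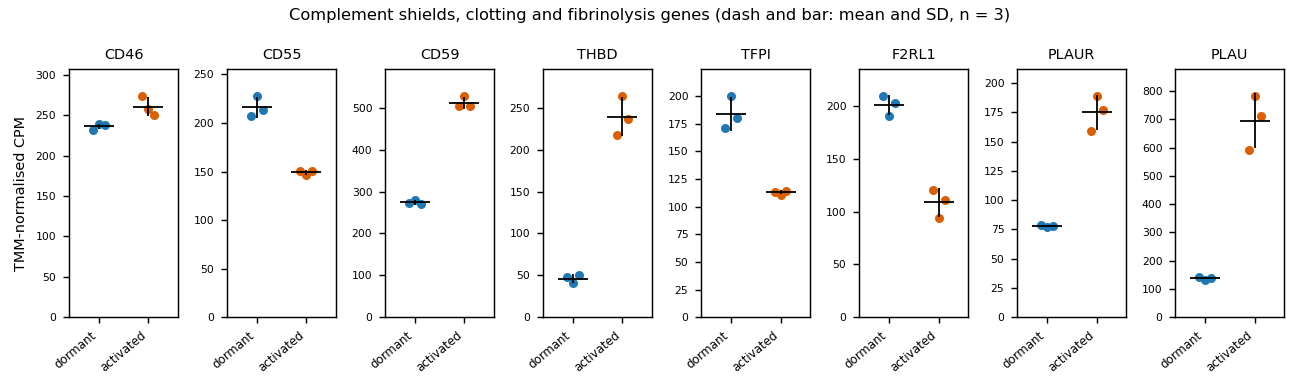
Level in each library, as TMM-normalised CPM, of 8 genes that act on complement, clotting and plasminogen, with dormant libraries in blue, activated libraries in orange and the mean and SD of 3 libraries in black. CD59, THBD, PLAUR and PLAU are higher and CD55, TFPI and F2RL1 lower in activated libraries. CD46 is 1.10-fold higher with TMM factors, a rise that did not hold with total counts.

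Of the 6 coagulation genes, 5 were tested, 2 rose, 1 fell and 2 did not pass, beside 36.5% higher and 37.2% lower of all genes tested. F3, tissue factor, the membrane protein that starts clotting (chromosome 1, 94529173 to 94541759), was at 2.80, 2.08 and 1.99 CPM in dormant and 9.79, 6.66 and 6.09 CPM in activated libraries, 3.28-fold higher (log2 1.71 ± 0.22, adjusted p = 5.08e-06). F5, the cofactor of factor X in making thrombin, rose 1.63-fold from 4.76 ± 0.898 to 7.78 ± 1.31 CPM (adjusted p = 0.00227). F2RL1, the receptor PAR2, which tissue factor complexes and trypsin-like proteases cleave, fell 1.85-fold from 209.6, 190.4 and 203 CPM to 121, 94.0 and 111 CPM (log2 -0.89 ± 0.08, adjusted p = 5.91e-08). F2, prothrombin, was at 0.314 ± 0.130 and 0.626 ± 0.184 CPM (adjusted p = 0.0822). F12, the contact factor, was at 11.5 ± 1.58 and 12.9 ± 1.74 CPM (adjusted p = 0.258) and shares 399 of its 2769 exonic bases with GRK6 on the opposite strand. F10 had 1 count in each group and was not tested.

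The anticoagulants split. THBD, thrombomodulin, which turns thrombin toward activating protein C (chromosome 20, 23045633 to 23049672), was at 47.8, 40.3 and 50.2 CPM in dormant and 218, 264 and 237 CPM in activated libraries, 5.20-fold higher (log2 2.38 ± 0.08, adjusted p = 3.25e-12). PROS1, protein S, the cofactor of activated protein C, rose 1.58-fold from 32.6 ± 3.54 to 51.6 ± 2.56 CPM (adjusted p = 1.83e-06). PROC, protein C itself, was low and fell from 0.775, 0.746 and 1.09 CPM to 0.497, 0.173 and 0.335 CPM (2.58-fold, log2 -1.37 ± 0.47, adjusted p = 0.0163). That call did not hold without dormant replicate 3 (adjusted p = 0.0777) or without activated replicate 2 (adjusted p = 0.0774).

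TFPI, the inhibitor of tissue factor, fell 1.63-fold from 184 ± 15.0 to 113 ± 1.76 CPM (log2 -0.70 ± 0.06, adjusted p = 4.90e-08). The FPKM ratio of F3 to TFPI was 0.0372, 0.0236 and 0.0250 in dormant and 0.196, 0.136 and 0.121 in activated libraries, so TFPI stayed the more abundant transcript per length in each library. TFPI2, a related inhibitor of plasmin and other proteases, was at 242 ± 4.26 and 228 ± 5.63 CPM (log2 -0.09 ± 0.05, adjusted p = 0.111), and it shares 44 exonic bases with GNGT1 on the opposite strand, a gene with 1 count in all. With total counts TFPI2 fell by 0.22 on the log2 scale (adjusted p = 0.000387).

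All 3 fibrinolysis genes rose, beside 36.5% of all genes tested. PLAU, urokinase, which makes plasmin at the cell surface (chromosome 10, 73908832 to 73917494), was at 141, 133 and 138 CPM in dormant and 593, 783 and 711 CPM in activated libraries, 5.06-fold higher (log2 2.34 ± 0.08, adjusted p = 2.70e-12). Its receptor PLAUR rose 2.24-fold from 79.0, 77.3 and 77.6 CPM to 159, 189 and 177 CPM (adjusted p = 2.75e-10). PLAT, the tissue plasminogen activator, rose 4.62-fold from 3.13, 2.06 and 1.90 CPM to 12.5, 10.4 and 9.93 CPM (adjusted p = 7.24e-08). The groups did not overlap in these genes, as in 35 of the 40 members tested. The FPKM ratio of PLAU to PLAUR went from 2.29, 2.21 and 2.27 to 4.78, 5.30 and 5.15.

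Compared per length, the order of the 46 genes changed at the top. In dormant cells TFPI2 led with 115 ± 1.005 FPKM, followed by CLU at 85.6 and C1S at 83.7 FPKM, and PLAU was at 58.7 ± 1.11 FPKM. In activated cells PLAU led with 269.8 ± 37.5 FPKM, followed by C3 at 156, C1R at 135 and C1S at 127 FPKM, and TFPI2 was at 98.5 FPKM. FPKM values are scaled to total counts and not by TMM, so folds in FPKM are not equal to those in CPM.

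The counts for genes of the same pathways that are not among the 46 stand beside 36.5% higher and 37.2% lower of all genes tested, and the lists were not compared by a test. Of 29 other acute phase and liver secretory genes, 14 were tested, 6 rose and 4 fell. CD14, the lipopolysaccharide receptor that LBP serves and also one of the myeloid markers, rose 8.37-fold from 1.10 ± 0.396 to 9.25 ± 0.478 CPM (adjusted p = 1.08e-08), and ITIH5 rose 3.75-fold. PTX3, the long pentraxin, fell 12.9-fold from 10.6 ± 2.34 to 0.816 ± 0.109 CPM (adjusted p = 1.17e-09), and SERPINA3, alpha-1-antichymotrypsin, fell 2.73-fold (adjusted p = 7.46e-06). Of 38 other complement genes, 11 were tested, 5 rose and 3 fell, and 5 of the 11 passed the count filter through 1 group only. SUSD4, a complement inhibitor that passed the filter only through the activated libraries, rose 2.51-fold (adjusted p = 0.0356). Settings in which that call did not hold included total counts (adjusted p = 0.0570) and the replicate number as a block (adjusted p = 0.0516). The call was also lost without dormant replicate 1 (adjusted p = 0.152), dormant replicate 2 (0.0592), activated replicate 1 (0.103) or activated replicate 3 (0.0770). C5AR1, the C5a receptor, fell 2.74-fold (adjusted p = 0.000472). MASP2, a lectin pathway protease with 14, 15 and 15 dormant and 0 activated counts, was at least 13.3-fold lower. It passed the filter only through the dormant libraries. The near-identical genes C4A and C4B, summed, had 55 dormant and 17 activated counts, 2.94-fold lower with a 95% interval of 1.68 to 5.40 (log2 -1.54 ± 0.64, adjusted p = 0.0420), a call that did not hold without dormant replicate 1 (adjusted p = 0.0964), dormant replicate 3 (0.144), activated replicate 1 (0.165) or activated replicate 2 (0.0786).

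Of 33 other coagulation and fibrinolysis genes, 17 were tested, 9 rose and 3 fell, with a median log2 fold change of 0.54. The largest rises were those of THBS1, thrombospondin 1, at 2.87-fold and S100A10, a plasminogen-binding protein, at 2.78-fold, and the largest falls those of F2RL2, the receptor PAR3, at 2.25-fold and F8, factor VIII, at 1.68-fold. THBS1 went from 26.4 to 75.6 CPM and S100A10 from 199 to 554 CPM.

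Among 30 genes of interleukin 6, interleukin 1 and STAT3 signalling, 28 were tested, 16 rose and 8 fell. SOCS3, the feedback inhibitor of STAT3 signalling, rose 6.92-fold from 31.1 ± 3.57 to 215 ± 0.859 CPM (adjusted p = 1.32e-13), and the cytokine IL11 rose 5.54-fold from 13.3 to 73.6 CPM. STAT3 rose 1.996-fold from 205 ± 2.25 to 409 ± 4.89 CPM (adjusted p = 4.55e-11), and IL6ST, which encodes gp130, 1.97-fold. The interleukin 6 receptor IL6R fell 4.71-fold from 21.0 ± 1.95 to 4.45 ± 1.23 CPM (adjusted p = 6.66e-09). IL6 was at 30.5 ± 1.80 and 34.8 ± 0.976 CPM (log2 0.19 ± 0.07, adjusted p = 0.0224). Settings in which the IL6 call did not hold included total counts (adjusted p = 0.512). They also included leaving out dormant replicate 2 (adjusted p = 0.0933) and leaving out activated replicate 3 (adjusted p = 0.0772). CEBPA fell 2.83-fold and CEBPB, known as an activator of acute phase genes, 2.16-fold from 574 ± 28.4 to 265 ± 2.70 CPM (adjusted p = 4.08e-11). CEBPD rose 1.23-fold (adjusted p = 0.00124), and the settings in which its call did not hold included log2(FPKM + 1) with no filter (adjusted p = 0.0942). Of 16 liver transcription factors, 14 were tested, 3 rose and 5 fell. NR5A2 rose 1.88-fold and FOXA1 1.47-fold, and HNF4G fell 3.23-fold. PROX1 had 240 dormant and 19 activated counts, 11.5-fold lower with a 95% interval of 7.18 to 19.4. Its fitted fold of 11.3 became 17.4 without activated replicate 2, and it passed the filter only through the dormant libraries. HNF4A (log2 -0.03, adjusted p = 0.782) did not pass. Of the genes named from these 5 lists, PTX3, THBS1, F2RL2, F8, IL6 and FOXA1 share exonic bases with a gene on the opposite strand.

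**Figure D5:**
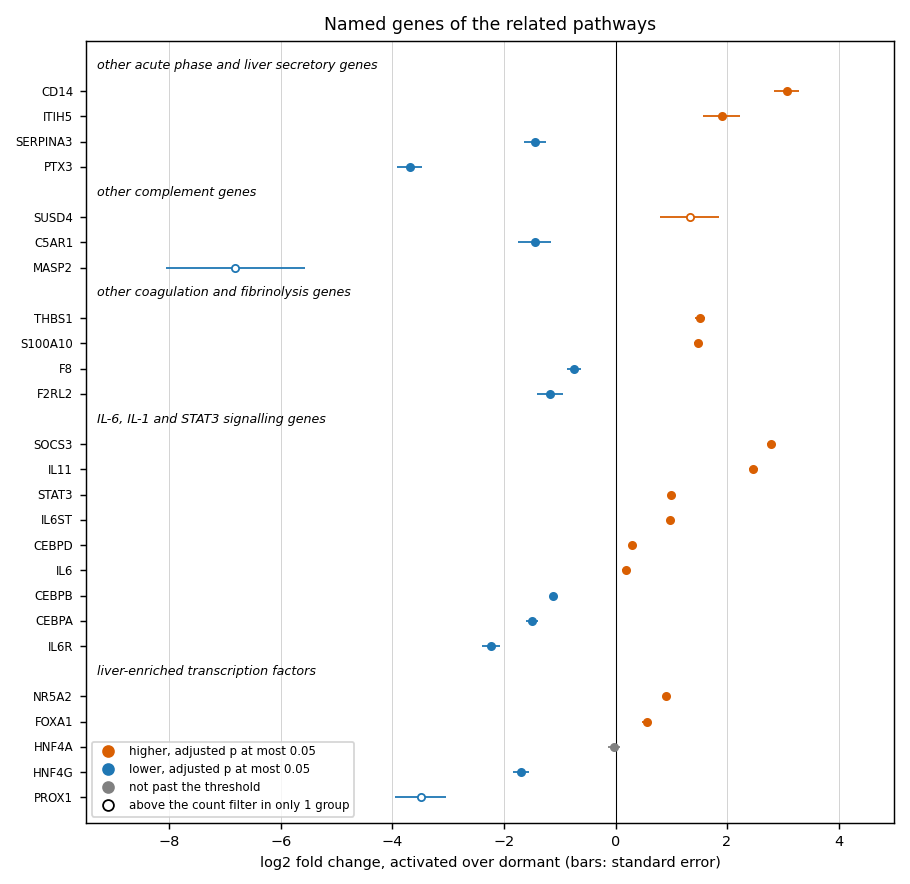
Log2 fold change (activated minus dormant) of the genes named from 5 lists of related genes that are not among the 46, with bars of 1 standard error and open circles for genes that passed the count filter in 1 group only. CD14 and SOCS3 lie farthest to the right of 0, and the position of MASP2, which had 0 activated counts, is a fitted value and no bound.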

How the data were processed

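Per the labels' protocols, TRIzol was used to take total RNA from 3 dormant and 3 activated A549 samples, and the VAHTS Universal V6 kit to make libraries. fastp, HISAT2, HTSeq and the build GRCh38 are named in the submitters' processing notes. Versions, the gene annotation and the use of strand in counting were not given in the sources used here. Whole-number counts per gene symbol were deposited by the authors and, in a second table, FPKM values, which equal those counts divided by a length and by the library's total.

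Counts were tested with edgeR 4.0.16 (R 4.3.3), using TMM factors, the default filter by group (minimum count 10, at least 0.278 CPM in 3 libraries), the quasi-likelihood test and Benjamini-Hochberg adjustment over all 13336 genes tested. CPM are TMM-normalised. Standard errors were derived from the F statistic, as the log2 fold change over its square root. Levels are compared between genes only in FPKM as deposited by the authors. Where a group of a tested gene named here had under 30 counts, the ratio of counts is given with an exact binomial 95% interval, and a count of 0 is read as up to 3 counts over the group. Both cover counting error only.

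The members, the gene lists and the marker lists were chosen with earlier results of these data known. Values per library are given for members that passed with at least a 2-fold change, and for the fibrinogen chains, shields and fibrinolysis genes. Of each pathway list the 2 largest rises and 2 largest falls with at least 30 counts are named, plus IL6, IL6R, IL6ST, STAT3, SOCS3, CEBPA, CEBPB, CEBPD and HNF4A. Some genes that this rule takes are not reported here. Neighbouring genes, the C4A and C4B sum and the FPKM ratios were added for this description.

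Alternatives were DESeq2 size factors or total counts, DESeq2 1.42.0, limma voom (limma 3.58.1), no filter or a filter of 1 CPM in 3 libraries, limma on log2(FPKM + 1) or log2(FPKM + 0.1), the replicate number as a block, and leaving out each library. Gene positions and promoters are from RefSeq (GRCh38.p14), and exon overlaps and transcript identities from GENCODE on GRCh38.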

Additional observations from a re-analysis of the deposited data

How the results depend on the processing

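The number of genes changed was 9830 and lay between 9109 and 10009 over the alternatives, and between 9298 and 9756 when 1 library was left out. The members higher in activated cells numbered 26, with 23 to 26 over the alternatives and 25 to 26 with 1 library left out, and those lower numbered 6, with 4 to 8 and 5 to 6. Same-numbered libraries did not deviate together (correlations of 0.00229, 0.0177 and 0.00333). Correlations between differently numbered libraries ran from -0.0142 to 0.0110. Values this small cannot show whether the numbers mark a shared culture, which the labels do not give. In the fit with a block for the replicate number, 9789 genes, 26 members higher and 6 lower were called. Of all calls, 49.5% were higher with TMM factors, 39.7% with total counts and 40.3% with log2(FPKM + 1) and the filter (3684 higher and 5460 lower). Of 613 alternative values for single members, 597 had the same direction and were on the same side of the threshold. The call was lost in 7 (CD46 and PROC) and gained in 5 (AHSG and TFPI2). The direction turned in 4, none of them called: SAA2 was -0.00043 with log2(FPKM + 1) and no filter and -0.031 to 0.36 with 1 library left out, lowest without activated replicate 1, and APOH was -1.30 to 0.28 with 1 library left out, above 0 without dormant replicate 2 (0.17) and without activated replicate 2 (0.28). Of 454 values for pathway genes, 437 kept both, 14 lost the call (CEBPD, IL6 and SUSD4) and 1 gained it. HNF4A, not called, was -0.089 to 0.039 with 1 library left out, above 0 without dormant replicate 3 and without activated replicate 3 (0.012). The SAA1 and SAA2 sum lay between 0.49 and 0.77 with 1 library left out, and SAA2 alone was at 0.15 (adjusted p = 0.744). The C4A and C4B sum lay between -2.24 and -1.04 (adjusted p 0.0236 to 0.165), and C4A alone was at -1.27 (adjusted p = 0.102). The causes of these changes were not tested. With 3 libraries per group of 34128471 to 36667725 counts, members under about 1 CPM have wide errors, and a count of 0 over a group allows up to 0.0268 CPM in dormant and 0.0295 CPM in activated cells.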
